A study of Homo sapiens with 32 samples.

Results

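The comparison set NTera2 cells given denosumab against NTera2 cells given RANKL, over all genes. NTera2 is an established line derived from embryonal carcinoma, a germ cell tumour of pluripotent cells. The members were chosen by the labels alone: the 4 libraries labelled denosumab and the 4 labelled RANKL in this line, which make 8 of the 32 libraries of the series. Libraries were paired by replicate number, since each number stood for a single passage of the cells (27, 29, 30 and 31 for replicates 1 to 4). All cells were grown in medium with fetal bovine serum and harvested after 48 h, from 4 independent experiments per the labels. RANKL was given at 1 µg/ml. Denosumab appears in the titles and treatment labels, whereas the protocol repeats RANKL where a further agent would stand. No dose of denosumab is given, and the labels do not say whether RANKL was present in the denosumab wells. The vehicle (D-PBS) and OPG (1 µg/ml) libraries of the same line took no part in the fit of this comparison. They are given as levels beside it, and OPG also as a contrast with the same RANKL libraries. The other line of the series, TCam-2, derived from seminoma, was used for 1 comparison of the difference. Its replicates 1 to 4 were at passages 118, 120, 121 and 122.

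RANKL, encoded by TNFSF11, is a ligand of the tumour necrosis factor family. It binds the receptor RANK (TNFRSF11A), which recruits TRAF adaptor proteins and switches on NF-kB, JNK, p38 and, in osteoclast precursors, NFATC1. OPG (TNFRSF11B) is a secreted decoy receptor that captures RANKL, and denosumab is a human antibody to RANKL used in patients to slow bone loss. The axis is best known from bone, where RANKL drives the formation of bone-resorbing osteoclasts.

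The libraries carried most of the markers of their label. The summed level of the 14 embryonal carcinoma markers lay between 2865 and 3360 CPM (counts scaled to the depth of each library) in the denosumab libraries and between 2803 and 3268 CPM in the RANKL libraries. Of the 14, 11 had a mean of at least 1 CPM. Across the 8 libraries POU5F1 ranged from 1190 to 1448 CPM, SOX2 from 240 to 298 CPM and LIN28A from 2157 to 2239 CPM. The 13 markers of seminoma and primordial germ cells summed to between 205 and 229 CPM with denosumab and between 212 and 228 CPM with RANKL, and 8 of them had a mean of at least 1 CPM. Of the 13, KIT ranged from 20.97 to 32.0 CPM and TFAP2C from 19.0 to 27.9 CPM over the 8 libraries, while SOX17 did not exceed 0.299 CPM. Total counts lay between 11385500 and 30499538, and RANKL replicate 1 held the highest total against a range of 11385500 to 15076678 in the other 7. The RNA integrity number (RIN, a score of RNA quality given by the labels) was 8.9, 9.0, 9.1 and 9.0 in denosumab replicates 1 to 4 and 9.1, 8.4, 8.3 and 9.2 in RANKL replicates 1 to 4.

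No gene was called different between denosumab and RANKL in NTera2. Of 16298 genes tested, 0 were called by edgeR's quasi-likelihood test at a Benjamini-Hochberg adjusted p under 0.05 (0%), and the smallest adjusted p was 0.999. DESeq2 and limma-voom called 0 as well. At an unadjusted p under 0.05 there were 611 genes (3.75%), with 316 higher with denosumab (1.94%) and 295 lower (1.81%). The log2 fold change of denosumab to RANKL was positive for 50.1% of genes, and its median over all genes was 0.00034. The p-values measure the spread between these cultures of a single line.

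The null count came with narrow intervals. Among the 9937 genes with a mean of at least 10 CPM, the median standard error (SE) of the log2 fold change was 0.0888, and the central 95% of the estimates lay between -0.20 and 0.20. For 9936 of them the 95% interval lay wholly within a 2-fold difference either way, and for 9826 (98.9%) within a 1.5-fold difference. The estimates of this group ran from -0.55 (ENSG00000269968) to 0.51 (TBC1D8), and 0 of the 9937 were beyond 1.5-fold. Over all 16298 genes, which include low ones, the interval lay within 2-fold for 82.0%. The SE of a gene borrows spread across genes, so a gene whose pairs vary more than most carries an interval that is too narrow.

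**Figure D1:**
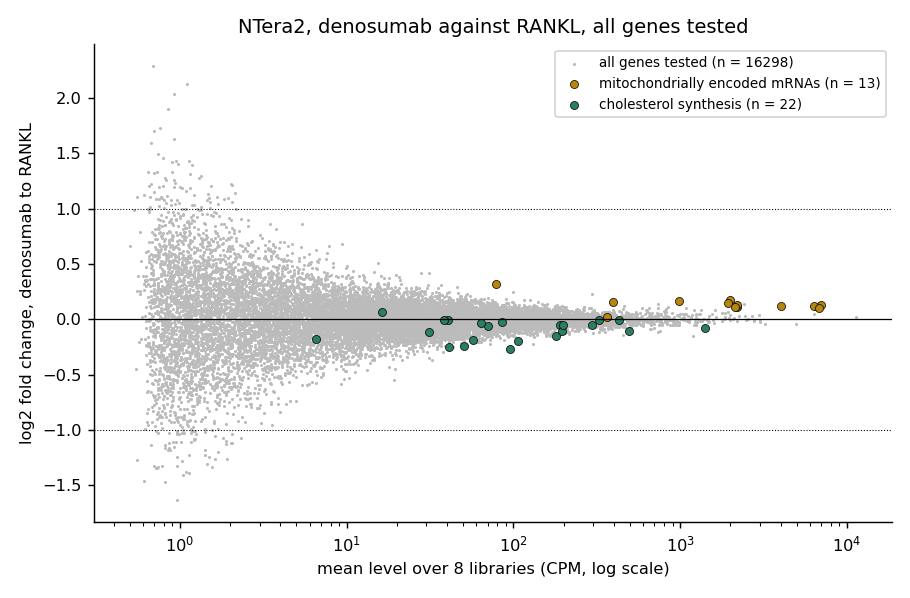
Log2 fold change of denosumab to RANKL (vertical axis) against the mean level over the 8 libraries in CPM (horizontal axis, log scale) for the 16298 genes tested, each a grey point; dotted lines mark 2-fold. Estimates spread widely below 10 CPM and narrow above it. The 13 mitochondrially encoded mRNAs (gold) lie above 0, and 21 of the 22 cholesterol synthesis genes (green) lie below it.

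The 3 genes of the ligand, receptor and decoy were all detected at low levels, lower on average with denosumab, and none was called. TNFSF11 (ENSG00000120659; hg38 chromosome 13, 42562736 to 42607174) stood at 1.58, 2.02, 1.49 and 1.48 CPM in denosumab replicates 1 to 4 and at 2.27, 2.34, 1.99 and 3.02 CPM in RANKL replicates 1 to 4. Each denosumab library was below its RANKL partner, and the groups overlapped only between denosumab replicate 2 and RANKL replicate 3. The means were 1.64 ± 0.254 and 2.41 ± 0.440 CPM (SD, n = 4), a log2 fold change of -0.54 (SE 0.38, 95% interval -1.31 to 0.23, adjusted p = 0.999 in edgeR). The vehicle mean was 1.82 CPM and the OPG mean 1.55 CPM, the first between the denosumab and RANKL means and the second below both.

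TNFRSF11A (ENSG00000141655; chromosome 18, 62325287 to 62387659), the receptor RANK, stood at 7.84, 6.67, 5.82 and 6.27 CPM with denosumab and at 8.34, 6.96, 7.22 and 7.67 CPM with RANKL. It too was lower in 4 of 4 pairs, with overlapping groups. This gave a log2 fold change of -0.18 (SE 0.19, 95% interval -0.57 to 0.20). TNFRSF11B (ENSG00000164761), the decoy receptor OPG, stood at 0.751, 1.75, 1.87 and 1.55 CPM with denosumab and at 2.76, 2.63, 2.12 and 2.21 CPM with RANKL. All 4 denosumab values were below all 4 RANKL values, an order that 170 genes (1.04%) showed. Its log2 fold change was -0.75 (SE 0.40, 95% interval -1.56 to 0.06, adjusted p = 0.999 in edgeR). The vehicle and OPG means of TNFRSF11B were both 1.77 CPM.

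Of the 23 tested members of the RANKL axis and RANK signalling list, 0 were called, 11 were positive and 12 negative, and the median log2 fold change was -0.01 beside 0.00034 for all genes. Members were lower in 4 of 4 pairs in 4 cases, among 941 genes (5.77%) with that order, and higher in 4 of 4 pairs in 2 cases, among 937 genes (5.75%). SRC, a tyrosine kinase that osteoclasts need for their bone-facing membrane, had the smallest p. Its level was 74.8, 77.5, 75.7 and 71.9 CPM with denosumab and 61.7, 74.1, 70.3 and 58.0 CPM with RANKL. Each denosumab library was above its partner, while the groups overlapped. The ratio on the log2 scale was 0.19 (SE 0.073, unadjusted p = 0.0111). TRAF3, an adaptor that restrains the alternative NF-kB pathway, was at 22.3 ± 2.31 CPM with denosumab and 25.8 ± 1.94 CPM with RANKL, a log2 fold change of -0.21 (SE 0.11). TRAF6, the adaptor that carries most RANK signalling, was named for that role after its values were seen. Its log2 fold change was 0.06 (SE 0.13, 95% interval -0.21 to 0.33).

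The 8 NF-kB subunit and kinase genes had 0 called, 5 positive and 3 negative members and a median of 0.08. RELB, the subunit of the alternative pathway, had the smallest p among them, at 3.59, 3.60, 4.26 and 3.10 CPM with denosumab and 5.12, 4.69, 5.90 and 5.83 CPM with RANKL. The groups did not overlap. This made a log2 fold change of -0.56 (SE 0.24, 95% interval -1.05 to -0.08, unadjusted p = 0.0247, adjusted p = 0.999 in edgeR). The vehicle mean of RELB was 5.17 CPM and the OPG mean 4.95 CPM, both nearer to the RANKL level than to the denosumab level. NFKB1, NFKB2 and NFATC1 were named for their roles after their values were seen, and their log2 fold changes were -0.16 (SE 0.14), -0.08 (SE 0.082) and 0.09 (SE 0.15).

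Among 14 tested NF-kB targets, 0 were called, 9 were negative and the median was -0.10. ICAM1, an adhesion molecule induced by NF-kB, had the smallest p. It stood at 10.8, 12.9, 8.51 and 11.8 CPM with denosumab and at 10.5, 17.1, 16.9 and 16.9 CPM with RANKL. RANKL replicate 1 lay far below the other 3 RANKL libraries, and in that pair denosumab was the higher. Its log2 fold change was -0.46 (SE 0.16, unadjusted p = 0.00519). The targets BIRC3, CXCL8, CXCL1, CXCL2 and IL6 were too low to be tested.

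**Figure D2:**
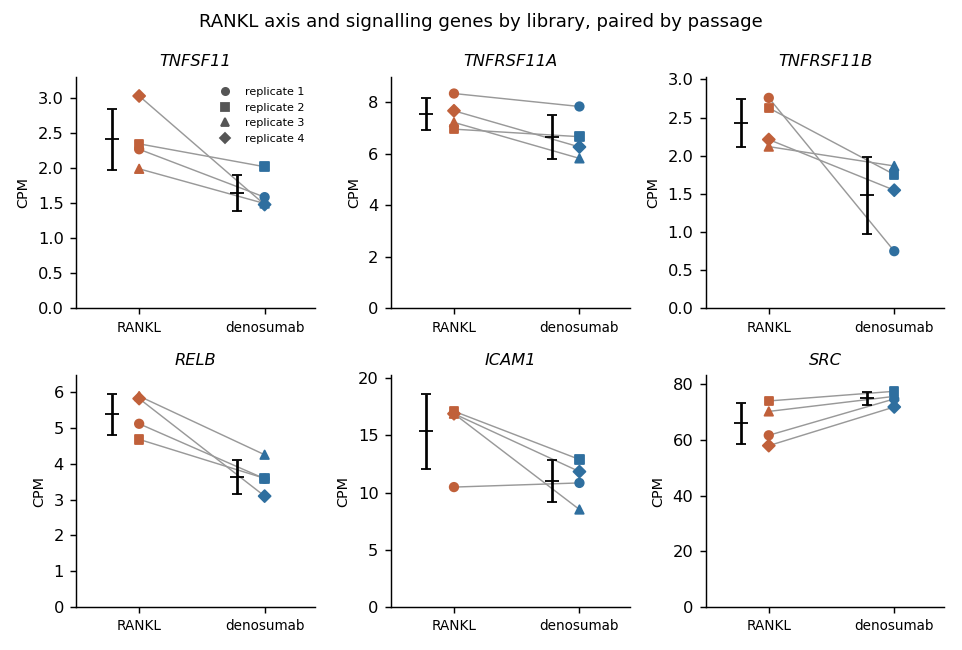
Level in CPM (vertical axis, from 0) of 6 genes in each NTera2 RANKL library (orange) and denosumab library (blue), with lines joining libraries of the same passage and a marker shape for each replicate; black bars are mean ± SD of 4 libraries. TNFSF11, TNFRSF11A, TNFRSF11B and RELB are lower with denosumab in every pair, SRC is higher in every pair, and in ICAM1 replicate 1 goes against the other 3; none of the 6 was called.

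Genes that RANK switches on in osteoclasts were tested in part. Of 17 listed, 9 did not pass the filter on low counts, among them ACP5, MMP9, CALCR, OSCAR, DCSTAMP and OCSTAMP. The other 8 had 0 called, 3 positive and 5 negative members. CTSK, the collagen-degrading protease of osteoclasts, stood at 10.3, 6.05, 6.57 and 7.54 CPM with denosumab and at 7.59, 6.68, 6.16 and 2.51 CPM with RANKL. The groups overlapped, and the low RANKL replicate 4 gave the largest gap. Its log2 fold change was 0.46 (SE 0.22, unadjusted p = 0.0479). The 13 tested genes of the JNK, p38 and AP-1 branch had 0 called, 9 negative and 4 positive members and a median of -0.11. MAP2K4, a kinase that activates JNK, and JUN, a subunit of AP-1, had log2 fold changes of -0.20 (SE 0.098) and -0.21 (SE 0.10).

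The 24 genes with the smallest p among those with the same sign in 4 of 4 pairs and a mean of at least 5 CPM in the higher group were named, 12 in each direction, and none was called. With denosumab higher they were MT-RNR1, SMIM3, ADCY6, C1R, TBC1D8, C4orf3, SORBS2, ZSWIM8, TMEM101, MRPL24, CACNA2D4 and ECEL1. SMIM3, a small membrane protein, had the largest log2 fold change of these, with 12.3, 11.3, 10.1 and 12.3 CPM with denosumab and 5.98, 8.66, 7.35 and 7.08 CPM with RANKL. The groups did not overlap, an order shown by 154 genes with denosumab the higher (0.945%). SMIM3 had a log2 fold change of 0.68 (SE 0.17, 95% interval 0.33 to 1.03). ADCY6, which makes cyclic AMP, stood at 104, 112, 101 and 114 CPM with denosumab and 83.7, 94.7, 87.4 and 99.2 CPM with RANKL. Every denosumab library was above every RANKL library, by a log2 fold change of 0.24 (SE 0.064). CACNA2D4, a calcium channel subunit, was at 9.16 ± 0.446 CPM with denosumab and 6.12 ± 1.21 CPM with RANKL, a log2 fold change of 0.60 (SE 0.19). SORBS2, an adaptor of the actin skeleton, was at 22.5 ± 2.54 and 17.1 ± 2.12 CPM, a log2 fold change of 0.40 (SE 0.12).

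With denosumab lower the 12 were SERPINB9, RCCD1, ZNF135, ZKSCAN3, TRAPPC6B, SQLE, SDC2, NACC2, ZFP36L2, ANXA1, VIM and CCDC92. SERPINB9, the inhibitor of granzyme B, stood at 117, 139, 118 and 111 CPM with denosumab and at 142, 167, 124 and 136 CPM with RANKL. The groups overlapped, with a log2 fold change of -0.22 (SE 0.060). VIM, the intermediate filament vimentin, stood at 434, 444, 442 and 402 CPM with denosumab and 467, 460, 501 and 479 CPM with RANKL. Its groups did not overlap, although the log2 fold change was -0.14 (SE 0.048). ZNF135, a zinc finger protein, was at 15.2 ± 1.34 and 20.6 ± 1.91 CPM, a log2 fold change of -0.43 (SE 0.13). TRAPPC6B, a subunit of a vesicle tethering complex, was at 7.89 ± 1.48 and 11.5 ± 1.76 CPM, a log2 fold change of -0.54 (SE 0.17).

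Across the 24 named genes the unadjusted p reached 0.00357 among the higher and 0.00468 among the lower genes. The vehicle mean lay between the denosumab and RANKL means in 10 of the 12 higher and 10 of the 12 lower genes, and the OPG mean in 12 and 11. Genes picked for a wide gap between a pair of groups tend to have other groups between them, so these counts are a description of the named genes.

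Of the 423 tested genes in 29 lists, 0 were called, and 17 were higher and 17 lower at an unadjusted p under 0.05, beside 1.94% and 1.81% of all genes tested. Of these, 12 of the higher were mitochondrially encoded and 7 of the lower belonged to cholesterol synthesis. The median log2 fold change stayed within 0.1 of 0 in 24 of the 28 lists that had tested members. The exceptions were the mitochondrially encoded mRNAs at 0.13, the JNK, p38 and AP-1 genes at -0.11, the 3 tested immune cell markers at -0.16 and the 6 tested genes of somatic and extraembryonic differentiation at -0.30.

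**Figure D3:**
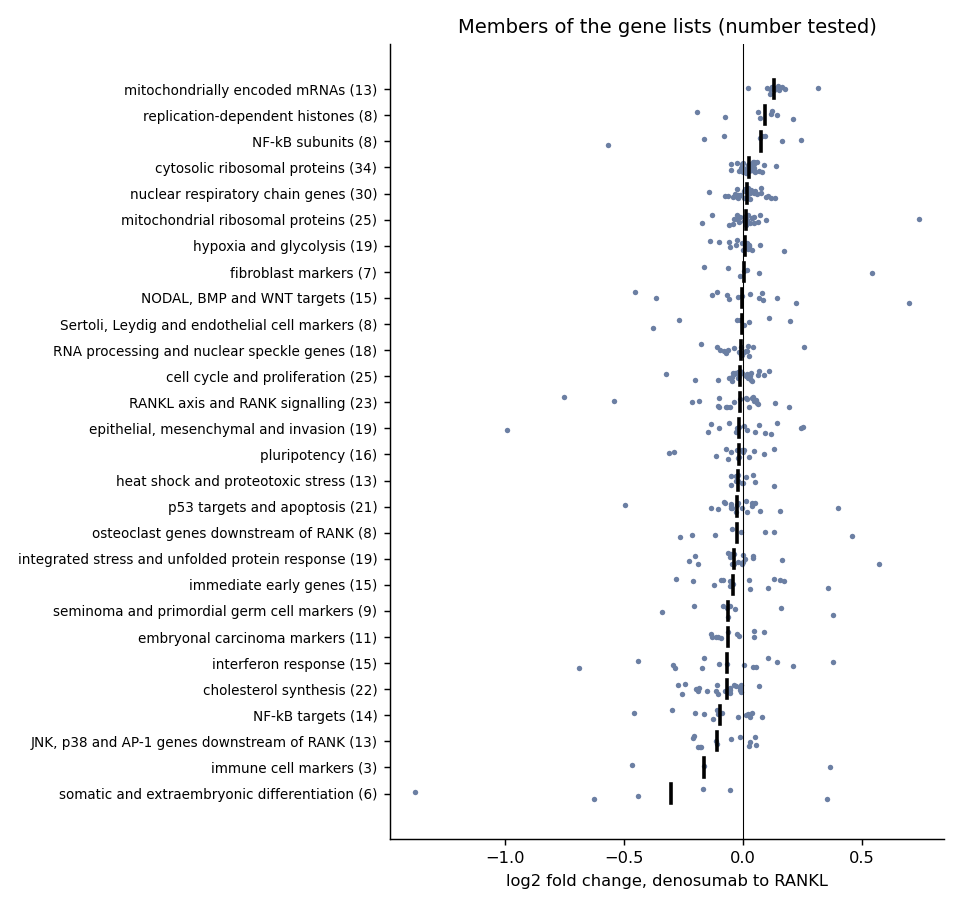
Log2 fold change of denosumab to RANKL (horizontal axis) for each tested member of 28 gene lists (points), with the number tested in parentheses and the list's median as a black bar. Most medians lie close to 0. The 13 mitochondrially encoded mRNAs all lie above 0, and the wide points of other lists belong to genes with larger SEs.

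Genes of the pluripotent state lay close to 0. Of 16 tested pluripotency genes, 0 were called, 6 were positive and 10 negative, with a median of -0.02. POU5F1, the core pluripotency factor OCT4, was at 1367 ± 89.1 CPM with denosumab and 1289 ± 87.0 CPM with RANKL, a log2 fold change of 0.09 (SE 0.044). NANOG was at 68.8 ± 8.98 and 74.4 ± 9.69 CPM, a log2 fold change of -0.11 (SE 0.072). SOX2, named for its role after its values were seen, had a log2 fold change of -0.02 (SE 0.052, 95% interval -0.12 to 0.09). MIXL1, a factor of early mesoderm and endoderm, was near the detection limit, at 0.334, 0.789, 1.27 and 0.211 CPM with denosumab and 1.51, 1.49, 1.46 and 1.62 CPM with RANKL. The groups did not overlap, and the log2 fold change was -1.38 (SE 0.54, unadjusted p = 0.0153, adjusted p = 0.999 in edgeR). Of the 18 genes in its list, 12 were too low to be tested.

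Proliferation genes had a median near 0 too. All 25 cell cycle genes were tested, 0 were called, and the median was -0.01, with 11 positive and 14 negative. CCND3, a D-type cyclin, had the smallest p, at 10.6, 22.9, 18.7 and 19.1 CPM with denosumab and 20.95, 24.3, 20.8 and 20.7 CPM with RANKL. Denosumab replicate 1 alone lay far below the rest. CCND3 had a log2 fold change of -0.32 (SE 0.13). MKI67, the proliferation marker, was named for its role after its values were seen and had a log2 fold change of -0.04 (SE 0.052, 95% interval -0.14 to 0.07). The 21 genes of the p53 and apoptosis list had 0 called and a median of -0.02. CASP8, the initiator caspase of death receptors, was at 11.6 ± 1.46 CPM with denosumab and 8.86 ± 1.52 CPM with RANKL, a log2 fold change of 0.40 (SE 0.16).

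Genes of invasion and of developmental signalling had medians near 0. The 15 tested targets of NODAL, BMP and WNT had 0 called and a median of -0.00109. The 19 tested genes of the epithelial, mesenchymal and invasion list had 0 called and a median of -0.01. At an unadjusted p under 0.05 in edgeR, 2 of them were lower and 0 higher, beside 1.81% and 1.94% of all genes. STAT2, a transducer of interferon signalling, was at 52.1 ± 3.58 CPM with denosumab and 45.1 ± 3.30 CPM with RANKL, a log2 fold change of 0.21 (SE 0.082). Its list of 15 tested genes had 0 called, 8 negative members and a median of -0.07, with log2 fold changes from -0.69 to 0.38.

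Genes of cholesterol synthesis were lower with denosumab by small amounts, and none was called. In this pathway HMGCS1 acts on the way to mevalonate, MVD and IDI1 turn it into isoprenoid units, FDFT1 and SQLE start the sterol branch, and MSMO1 works on the ring. INSIG1 holds the sensor of sterols in the endoplasmic reticulum, and SREBF2 encodes the transcription factor of the pathway. All 22 listed genes were tested. The log2 fold change was negative for 21 and ranged from -0.27 to 0.07, with a median of -0.07. At an unadjusted p under 0.05, 7 were lower and 0 higher, beside 1.81% and 1.94% of all genes, and 6 were lower in 4 of 4 pairs, beside 5.77%.

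MVD had the smallest p of the list. It stood at 67.9, 106, 90.2 and 85.1 CPM with denosumab and 100, 104, 117 and 97.0 CPM with RANKL. Replicate 2 went the other way, and the groups overlapped. The log2 fold change was -0.27 (SE 0.072, unadjusted p = 0.000668). SQLE stood at 100, 91.1, 108 and 97.5 CPM with denosumab and 115, 103, 121 and 118 CPM with RANKL. It was lower in each pair by a similar amount, with overlapping groups and a log2 fold change of -0.20 (SE 0.062, unadjusted p = 0.00299). INSIG1 was at 46.3 ± 6.70 and 54.7 ± 5.70 CPM, a log2 fold change of -0.24 (SE 0.088). MSMO1 was at 37.2 ± 3.16 and 44.7 ± 7.51 CPM, a log2 fold change of -0.25 (SE 0.093). HMGCS1 was at 170 ± 16.5 and 190 ± 24.2 CPM, a log2 fold change of -0.15 (SE 0.056). FDFT1, at 473 ± 21.6 and 510 ± 11.8 CPM, was the 1 member whose groups did not overlap, beside 1.04% of all genes, with a log2 fold change of -0.11 (SE 0.047).

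Summed over the 22 genes, the share of all counts was 0.437%, 0.430%, 0.437% and 0.415% with denosumab and 0.454%, 0.454%, 0.464% and 0.447% with RANKL. The share was lower in each pair and the groups did not overlap. The means were 0.430 ± 0.0105% and 0.455 ± 0.00684% (SD, n = 4). The vehicle libraries stood at 0.458 ± 0.00652% and the OPG libraries at 0.434 ± 0.00805%. The denosumab mean was below the vehicle mean for 17 of the 22 genes, and the RANKL mean was above it for 11. In bulk RNA, a lower level per cell and a lower share of cells with the transcript cannot be told apart.

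The start regions of these genes were looked up as background, after the members had been seen to lie together on one side. RefSeq promoter windows of 300 bases (GRCh38.p14, where the processing notes of the counts give GRCh38) were matched for 16 of the 22 genes. The pathway is known to be driven by the transcription factor SREBP2 together with NF-Y, which binds the CCAAT box. The letters TCACNCCAC, a form of the sterol regulatory element, were searched on both strands and found in 1 of the 16 (6.25%), SREBF2, and in 1.128% of 35116 promoters. The letters CCAAT, likewise on both strands, were found in 13 of the 16 (81.2%) and in 34.6% of all promoters. The list had 1 window per gene, whereas the 35116 promoters were not limited to the genes tested here, so the shares are not strictly alike. The search used no value from these libraries, so the shares describe the gene list and not the difference between denosumab and RANKL. SQLE and FDFT1 were not among the 16. In the SREBF2 window the letters of the motifs do not overlap. A match describes the letters in the window, and no binding was measured. CCAAT matches numbered 5 in MVK and in NSDHL and 4 in MSMO1, above the 3 of MVD and the 2 of HMGCS1. In the fit of 16 libraries the NTera2 log2 fold changes of these genes were -0.11, -0.0055, -0.25, -0.27 and -0.15, in that order. A relation between matches and change was not tested. The windows of MVD (chr16:88663042-88663341, minus strand) and HMGCS1 (chr5:43313363-43313662, minus strand), genes described above, are shown with CCAAT or its reverse complement ATTGG in capitals. That of SREBF2 (chr22:41832855-41833154, plus strand) is shown for the sterol element (in capitals). Each window runs 5′ to 3′ along the gene.
MVD: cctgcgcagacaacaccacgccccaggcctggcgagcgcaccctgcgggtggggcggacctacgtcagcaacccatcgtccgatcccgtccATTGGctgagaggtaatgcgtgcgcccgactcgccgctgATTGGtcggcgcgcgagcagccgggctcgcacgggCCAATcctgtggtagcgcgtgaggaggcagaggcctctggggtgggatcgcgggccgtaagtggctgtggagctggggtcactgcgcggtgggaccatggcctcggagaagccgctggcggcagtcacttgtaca
HMGCS1: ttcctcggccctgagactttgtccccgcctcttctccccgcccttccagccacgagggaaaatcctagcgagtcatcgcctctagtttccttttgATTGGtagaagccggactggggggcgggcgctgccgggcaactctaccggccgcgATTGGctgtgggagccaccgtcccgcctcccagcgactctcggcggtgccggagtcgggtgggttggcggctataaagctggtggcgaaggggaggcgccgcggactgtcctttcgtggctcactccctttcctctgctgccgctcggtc
SREBF2: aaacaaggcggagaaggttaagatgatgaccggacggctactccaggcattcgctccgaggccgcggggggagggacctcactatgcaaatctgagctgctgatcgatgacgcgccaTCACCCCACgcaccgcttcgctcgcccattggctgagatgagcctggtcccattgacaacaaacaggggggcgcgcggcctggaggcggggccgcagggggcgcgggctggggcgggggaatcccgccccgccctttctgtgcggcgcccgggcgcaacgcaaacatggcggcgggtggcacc

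Mitochondrially encoded mRNAs were higher with denosumab by small amounts, and none was called. These 13 mRNAs encode subunits of the respiratory chain and of ATP synthase and are cut from long shared transcripts, so they are not independent. The log2 fold change was positive for 13 of 13, from 0.02 (MT-ND3) to 0.32 (MT-ND6), with a median of 0.13. At an unadjusted p under 0.05, 12 were higher, beside 1.94% of all genes, whereas 5 were higher in 4 of 4 pairs, beside 5.75%. The median by pair was 0.14, 0.04, 0.26 and 0.03 for replicates 1 to 4.

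MT-CO1, a core subunit of cytochrome c oxidase, stood at 7079, 6073, 6379 and 7115 CPM with denosumab and 6136, 5927, 5776 and 6675 CPM with RANKL. Each denosumab library was above its partner, with overlapping groups and a log2 fold change of 0.12 (SE 0.042). MT-ND6, the only one of the 13 encoded on the light strand, stood at 95.3, 73.8, 76.5 and 104 CPM with denosumab and 59.6, 74.4, 71.7 and 75.3 CPM with RANKL. Replicates 1 and 4 carried its difference, and replicates 2 and 3 were nearly level. MT-ND6 had a log2 fold change of 0.32 (SE 0.086, unadjusted p = 0.000876), while the ratios of the 4 pairs had an SD of 0.331. MT-RNR1, the small mitochondrial ribosomal RNA, had the smallest p of all genes. It stood at 346, 330, 290 and 314 CPM with denosumab and 282, 285, 229 and 301 CPM with RANKL, a log2 fold change of 0.23 (SE 0.052, unadjusted p = 6.41e-05, adjusted p = 0.999 in edgeR).

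The summed share of the 13 mRNAs was 4.06%, 3.59%, 3.64% and 3.89% of counts with denosumab and 3.71%, 3.48%, 3.08% and 3.72% with RANKL. It was higher in 4 of 4 pairs, with overlapping groups. The means were 3.79 ± 0.221% and 3.50 ± 0.302% (SD, n = 4), a difference of 0.298 percentage points. The exact two-sided paired permutation test gave p = 0.13, the smallest that 4 pairs allow. The vehicle libraries stood at 3.22 ± 0.164% and the OPG libraries at 3.52 ± 0.0955%. The denosumab mean was above the vehicle and OPG means for 13 of 13 mRNAs, and the RANKL mean was above the vehicle mean for 12.

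The RIN of the pairs is set beside these gaps. The widest gap in the share, 0.563 percentage points, was in replicate 3, where the RIN was 9.1 with denosumab and 8.3 with RANKL. In replicates 1 and 4, where the denosumab library had the lower RIN by 0.2, the gaps were 0.348 and 0.170 points, and in replicate 2, with a RIN gap of 0.6 the other way, the gap was 0.110. The part of RNA quality in the result was not tested. With RIN as a covariate the median of the 13 mRNAs was 0.10 with 12 positive, and 4 were higher at an unadjusted p under 0.05. In that fit MT-ND6 alone was called, with a log2 fold change of 0.46 (adjusted p = 0.0312 in edgeR). The fit puts replicate, RIN and treatment on 8 libraries, so few degrees of freedom remain. Without replicate 3 the median was 0.07 with 12 positive, and 3 were higher at that p, against 0.13, 13 and 12 with all libraries. Genes of the respiratory chain encoded in the nucleus had a median of 0.02 (30 tested, 19 positive, 0 called). Mitochondrial ribosomal proteins had a median of 0.01 (25 tested, 16 positive, 0 called). For cytosolic ribosomal proteins the median was 0.03 (34 tested, 26 positive, 0 called).

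**Figure D4:**
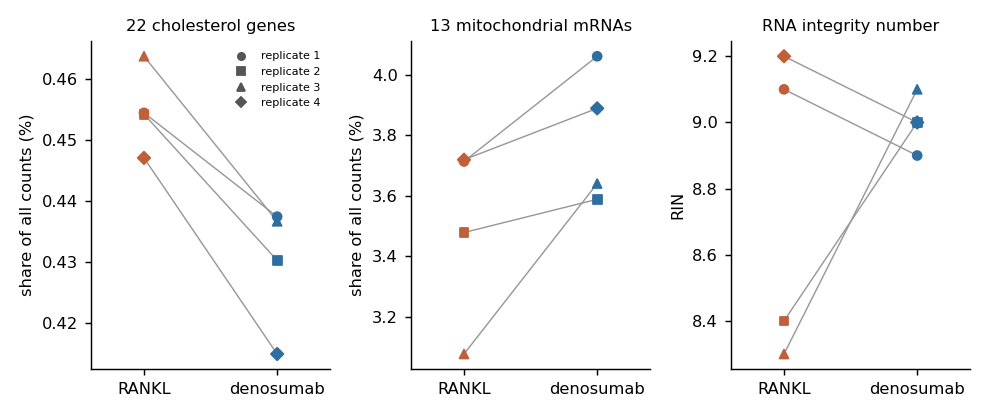
Share of all counts (vertical axes, in percent, not starting at 0) of the 22 cholesterol synthesis genes and the 13 mitochondrially encoded mRNAs, and the RIN, in each NTera2 RANKL (orange) and denosumab (blue) library; lines join libraries of the same passage and marker shapes give the replicate. The cholesterol share is lower and the mitochondrial share higher with denosumab in 4 of 4 pairs, whereas the RIN is higher in replicates 2 and 3 and lower in replicates 1 and 4.

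Markers of other cell types had summed levels whose ranges overlapped between the groups. Fibroblast markers summed to between 357 and 423 CPM with denosumab and between 360 and 420 CPM with RANKL. Most of the sum was THY1, which pluripotent cells also carry. Of the 11 markers 6 had a mean of at least 1 CPM, and DCN and FAP were at 0. COL1A1 ranged from 23.4 to 32.2 CPM and PDGFRA from 5.85 to 8.10 CPM over the 8 libraries. Immune markers summed to between 18.6 and 20.1 CPM and between 17.0 and 28.0 CPM, with PTPRC, MS4A1 and NKG7 at 0 (3 of 13 had a mean of at least 1 CPM). Markers of Sertoli, Leydig and endothelial cells summed to between 90.8 and 119 CPM and between 102 and 114 CPM, with CYP17A1 and HSD3B2 at 0. Of those 14 markers 7 had a mean of at least 1 CPM, among them AMH at 26.9 to 48.5, STAR at 22.4 to 29.7 and VWF at 6.75 to 14.7 CPM over the 8 libraries.

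The same contrast in TCam-2 shares no library with that in NTera2, so the difference between the lines could be tested. Of 18116 genes, 0 were called different by edgeR's interaction test (0%), with a smallest adjusted p of 0.714 and 943 genes (5.21%) at an unadjusted p under 0.05. DESeq2 called 0. The 22 cholesterol genes had a median of 0.01 in TCam-2, with 9 negative and 13 positive members, beside 21 negative in NTera2, and 0 of them were called different between the lines. MVD had a log2 fold change of 0.15 (SE 0.082) in TCam-2, and the difference from NTera2 had an adjusted p of 0.850 in edgeR. The 13 mitochondrial mRNAs had a median of 0.01 in TCam-2, with 10 positive members, and 0 were called different. ICAM1 had a log2 fold change of 0.90 (SE 0.37) in TCam-2 against -0.46 in NTera2, a difference that was not called. In TCam-2, RANKL replicates 2 and 4 had RINs of 6.1 and 3.7.

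**Figure D5:**
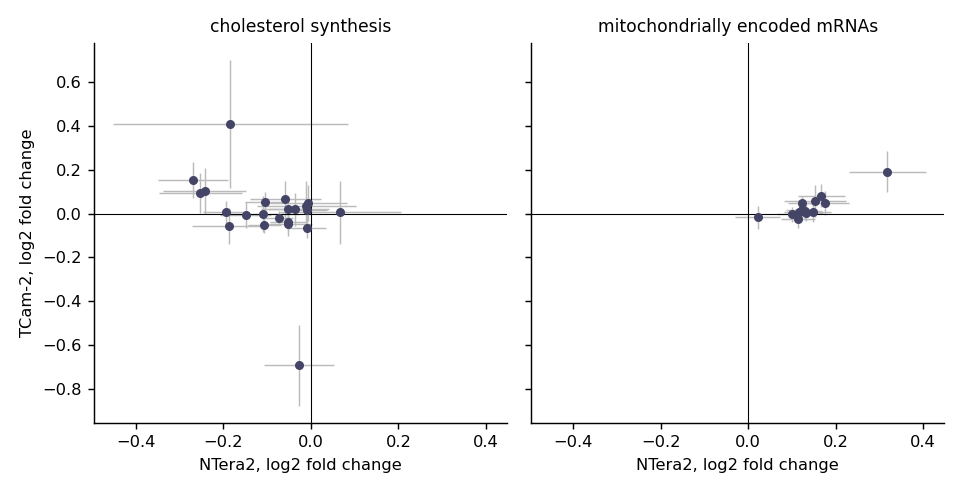
Log2 fold change of denosumab to RANKL in TCam-2 (vertical axis) against NTera2 (horizontal axis) for the 22 cholesterol synthesis genes (left) and the 13 mitochondrially encoded mRNAs (right); bars are 1 SE each way. Most cholesterol genes lie left of 0 and near 0 in height; no gene shown was called different between the lines.

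OPG, the other agent that captures RANKL, was set against the same 4 RANKL libraries, so its values are not independent of those above. That contrast called 30 of 16587 genes. The cholesterol genes had a median log2 fold change of -0.10 for OPG to RANKL (18 of 22 negative) and -0.07 for denosumab to RANKL. The mitochondrial mRNAs had a median of 0.00582 (8 of 13 positive) and 0.13. SMIM3 stood at 0.34 and 0.68, SORBS2 at 0.36 and 0.40, RELB at -0.12 and -0.56, TNFSF11 at -0.63 and -0.54 and TNFRSF11B at -0.48 and -0.75, OPG first in each case. These genes have the same sign in both contrasts, which not all named genes do. In the same order, MT-ND6 had opposite signs, at -0.14 and 0.32. MVD, at -0.03 and -0.27, and ICAM1, at -0.06 and -0.46, were near 0 with OPG.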

How the data were processed

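Polyadenylated RNA was sequenced from stranded libraries, per the labels' protocols. The authors used bcl2fastq 2.20.0, STAR 2.7.9a on GRCh38/hg38 and featureCounts 1.6.2, per the submitters' processing notes, and deposited raw read counts per gene, 1 column per library. Gene positions were deposited in other columns. The strand setting and annotation release are not given in the sources used here, so overlapping or antisense genes (MT-ATP6 and MT-ATP8, MT-ND4 and MT-ND4L, MT-ND6) are uncertain. Genes with near-identical copies, such as POU5F1 and mitochondrial genes, are uncertain too.

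The 8 libraries were fitted with the replicate as a block by the robust quasi-likelihood F test of edgeR 4.0.16 (R 4.3.3; TMM factors, filterByExpr) with Benjamini-Hochberg adjustment over all 16298 genes tested. An adjusted p under 0.05 was called. The SE is the log2 fold change divided by the square root of F. CPM used TMM factors over the 16 NTera2 libraries, and pair ratios log2 CPM with a prior count of 2. DESeq2 1.42.0 and limma 3.58.1 (voom) were alternatives. The line difference was fitted on 16 libraries. Symbols came from a gene name table, which held 61369 of 61541 identifiers. The scripts were tested on simulated data.

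Pairing came from the passage in the labels. Same-numbered libraries deviated together (correlations of 0.234, 0.291, 0.148 and 0.164 over 9937 genes), although denosumab replicate 2 matched RANKL replicate 3 best, and the reverse. Chi-square per degree of freedom between libraries of a group was 2.67 to 10.8, so no library was a repeat of another.

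Named were the 3 axis genes, 12 genes per direction (called genes by size, else smallest p, with at least 5 CPM in the higher group and 4 of 4 pairs alike) and, per list, the member of smallest p with up to 2 more on the median's side. Some genes that the rule names are not reported here. The members and lists were chosen with earlier results of these data known. Cancer-testis genes (12 listed) had 0 tested members. Vehicle and OPG libraries entered levels, the OPG contrast and 1 alternative only.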

Additional observations from a re-analysis of the deposited data

Results flagged for a closer look

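In groups of 4 libraries, 1 library stood far from the other 3 in 12 of 212 groups examined (5.66%), where chance gives about 1 in 20. The values are given without explanation. Total counts were 30499538 in RANKL replicate 1, beside at most 15076678 in the other 3.

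Replicate 1 of RANKL also stood apart for ICAM1 (10.5 CPM, the others at 16.9 to 17.1), MCL1 (430 CPM, the others at 373 to 382), NDUFB2 (107 CPM, the others at 115 to 116) and STAR (22.4 CPM, the others at 25.4 to 25.8). RANKL replicate 2 stood apart for CCND3 (24.3 CPM, the others at 20.7 to 20.95). RANKL replicate 3 stood apart for ID1 (77.8 CPM, the others at 59.9 to 62.6) and HSF1 (102 CPM, the others at 84.8 to 87.8). RANKL replicate 4 stood apart for the histone gene H2BC5 (15.2 CPM, the others at 10.4 to 10.7).

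Among denosumab libraries, replicate 1 stood apart for ANXA1 (16.5 CPM, the others at 21.3 to 21.8), a gene whose mean was lower with denosumab. Denosumab replicate 2 stood apart for TNFRSF8, the embryonal carcinoma marker CD30 (75.0 CPM, the others at 64.0 to 65.7). Denosumab replicate 4 stood apart for TMEM101 (24.7 CPM, the others at 22.9 to 23.0).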

How the results depend on the processing

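The count of genes called in NTera2 was 0 with all libraries and 0 in 15 of 17 alternatives. It was 1 with RIN as a covariate (MT-ND6, log2 fold change 0.46, adjusted p = 0.0312 in edgeR), a fit with few degrees of freedom left. Over the alternatives the smallest adjusted p of any gene ran from 0.00452 to 1.00. Leaving out a replicate gave 0 to 1, the 1 being MT-RNR1 without replicate 4 (0.29, adjusted p = 0.00452 in edgeR). The causes were not tested. Without the replicate block the count was 0 and 358 genes had an unadjusted p under 0.05, against 611 with it and 333 (DESeq2) to 1092 (all 16 NTera2 libraries) over the alternatives. The block thus changed no call. Thinning RANKL replicate 1 to the depth of its partner, chosen after seeing the data, gave 0.

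The line difference gave 0 except 12 with no filter on low counts (among them MVD, C4orf3 and SDC2) and 0 to 1 when a replicate was left out (PLEC, without replicate 4). Without the TCam-2 replicates of low RIN, also chosen after seeing the data, it gave 0. The mitochondrial share difference was 0.209 to 0.360 points without a replicate (exact p = 0.25), and without the block p was 0.171.

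Of 22 cholesterol genes 17 to 21 were negative, and 3 to 9 had an unadjusted p under 0.05. Of 13 mitochondrial mRNAs 12 or 13 were positive in the alternatives that kept them, but those at an unadjusted p under 0.05 fell to 2 with replicates 1 and 4 alone, 3 without replicate 3, 4 with RIN as a covariate and 5 without the block. Of 103 named genes at most 4 changed sign in any alternative. Of the list medians 18 of 475 moved by more than the spread between pairs. Genes under 10 CPM, such as TNFSF11, are limited by depth.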
